A study of Homo sapiens with 29 samples.

Results

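The subject of this report is a set of 10 genes whose products activate, reduce, conjugate or export heterocyclic amines, the mutagens formed when meat is cooked and tobacco is burned. The genes were SULT1A1, NAT1, NAT2, CYB5A, CYB5R3, GSTP1, GSTM3, UGT1A6, ABCC1 and ABCG2, and they were measured by every probe set that the array's annotation assigns to 1 of them alone, 18 of 54675 in all. The cells were BEAS-2B, an epithelial line from human bronchus made immortal by an adenovirus and SV40 hybrid, so every group carries viral genes and derives from a single line. Cultures were exposed for 24 h to N-OH-PhIP, the N-hydroxylated metabolite of the heterocyclic amine PhIP, at 0.1, 0.5, 1, 5, 10, 50, 100, 500 or 1000 nM, or to the solvent DMSO alone, and all cultures including controls contained DMSO at 1%. The 29 Affymetrix arrays gave 3 per group, except 2 at 0.5 nM, and per the labels each group was exposed in triplicate cultures. The question named in the labels is at which dose a transcriptional effect is first seen.

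N-OH-PhIP is reactive only after a further step. Sulfotransferases and N-acetyltransferases turn the hydroxylamine into an unstable ester that binds DNA, while cytochrome b5 and its reductase return it to the parent amine. Glucuronosyltransferases and glutathione S-transferases lead to excretable conjugates, and ABC transporters carry conjugates and amines out of the cell. In human tissue, sulfation by SULT1A1 and acetylation by the NAT enzymes are known routes to DNA adducts of PhIP.

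The stretches of 250 bases upstream of the annotated starts of CYB5R3, GSTP1 and GSTM3 are shown because these genes, a reductase and a pair of conjugating enzymes, were higher at both top doses and have an entry in the RefSeq promoter table (GRCh38.p14). Sequences are on the gene's strand, 5′ to 3′, at chr22:42649393-42649642 (minus strand) for CYB5R3, chr11:67583562-67583811 (plus strand) for GSTP1 and chr1:109741039-109741288 (minus strand) for GSTM3. Capitals mark matches to the core of the antioxidant response element (TGACNNNGC), of the xenobiotic response element (GCGTG) or to an AP-1 site (TGANTCA), each searched on both strands.
CYB5R3: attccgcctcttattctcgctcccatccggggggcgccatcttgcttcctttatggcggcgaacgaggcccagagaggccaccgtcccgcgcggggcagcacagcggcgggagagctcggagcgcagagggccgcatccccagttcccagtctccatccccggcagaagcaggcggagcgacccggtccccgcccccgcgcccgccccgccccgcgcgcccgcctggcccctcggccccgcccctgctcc
GSTP1: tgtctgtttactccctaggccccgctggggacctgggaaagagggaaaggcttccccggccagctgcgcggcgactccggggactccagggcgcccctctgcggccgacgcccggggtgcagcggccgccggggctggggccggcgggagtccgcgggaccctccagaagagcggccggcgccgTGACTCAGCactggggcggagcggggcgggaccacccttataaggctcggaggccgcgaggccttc
GSTM3: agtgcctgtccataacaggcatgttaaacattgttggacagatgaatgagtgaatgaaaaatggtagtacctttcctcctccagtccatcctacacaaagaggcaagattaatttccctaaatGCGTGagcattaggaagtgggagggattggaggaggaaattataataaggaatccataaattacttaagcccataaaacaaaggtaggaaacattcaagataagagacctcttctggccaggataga
The GSTP1 window held TGACTCAGC, 66 to 58 bases before the start, a match to the antioxidant core that overlaps an AP-1 match at 66 to 60 bases. GSTM3 held a single GCGTG, 127 to 123 bases before its start, and the CYB5R3 window shown held no match to any of the 3 motifs. CYB5R3 has 3 entries in the promoter table, and only the window of the outermost start is shown. The windows of its other starts were not read here. Over 35116 promoter windows of the same length, 10.9% held TGACNNNGC, 32.2% held GCGTG and 6.57% held TGANTCA. The windows of CYB5R3 and GSTP1 were 75.2% and 74.8% G and C, against 40% in GSTM3.

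In BEAS-2B cells 7 of the 10 genes were expressed above the background of genes from other tissues. Detection calls were not used here, so the level of each probe set was set against 72 probe sets of 33 genes restricted to other tissues (liver, blood, muscle, retina and others), whose 95th percentile was an intensity of 89.9. In all 10 groups 11 probe sets lay above that level, and they stood for SULT1A1, NAT1, CYB5A, CYB5R3, GSTP1, GSTM3 and ABCC1. GSTP1, the main glutathione transferase of airway epithelium, had a mean intensity of 6061 over all arrays, at the 99.3rd percentile of the array.

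The other 3 genes did not reach that background level in any group. NAT2, the acetyltransferase known for its slow and rapid human variants and found mainly in liver and gut, had a mean intensity of 6.67, and the only probe set of UGT1A6 alone averaged 8.11. Both fell under the intensity of 37.4 that a probe set had to reach to be tested, which is the median of the array. ABCG2, the breast cancer resistance protein that exports PhIP in mice, averaged 47.3, above that minimum but within the range of the tissue-restricted genes in all 10 groups. The median of the tissue-restricted probe sets was 15.1, and 8 of the 72 reached the minimum. Expressed genes also had dim probe sets: 1 of SULT1A1 averaged 68.9, 1 of CYB5A 19.98, 1 of GSTM3 25.6 and 1 of ABCC1 83.6. That of ABCC1 was above the background level in 1 of the 10 groups. In all, 14 of the 18 probe sets, of 8 genes, entered the tests.

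**Figure D1:**
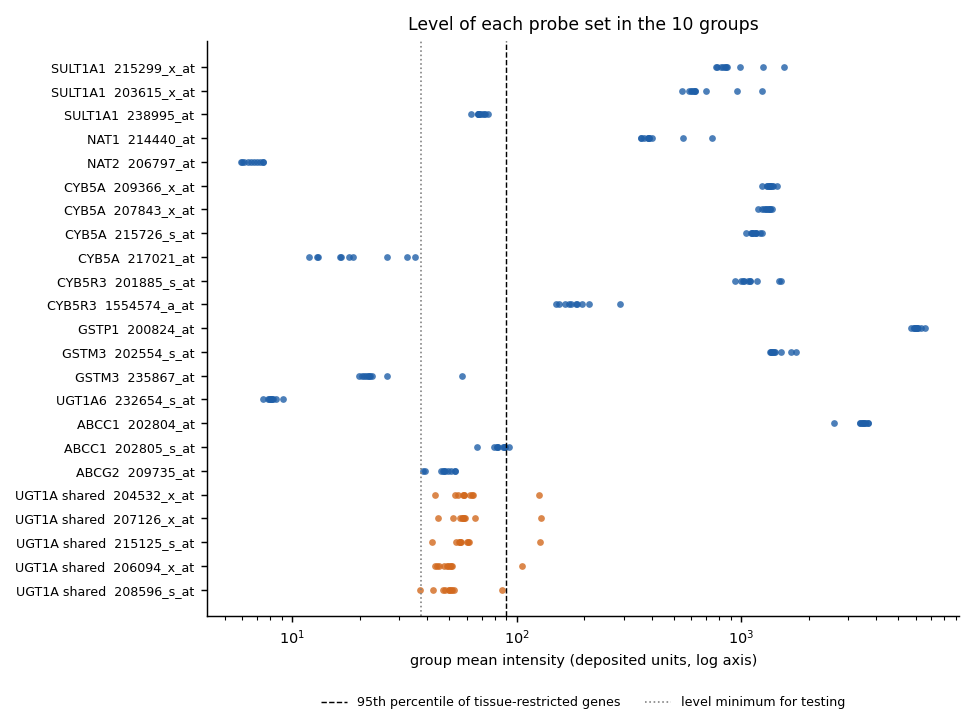
Group mean intensity (deposited units, log axis) of each of the 18 probe sets of the 10 genes in blue and of the 5 probe sets shared by UGT1A6 and other UGT1A genes in orange; each point is 1 of the 10 groups. The dashed line is the 95th percentile of tissue-restricted genes at 89.9 and the dotted line the minimum for testing at 37.4; NAT2 and UGT1A6 lie below both lines in every group.

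The arrays were alike overall. Replicate arrays correlated at 0.980 to 0.998, no pair was identical, and 500 nM replicate 3 had the lowest median correlation with its own group, 0.985. Without that array the 7 probe sets called at 500 nM were all still called, with the changes given beside each gene. Of 11 epithelial markers with a probe set, 10 were above background (KRT14 was not), against 0 of 4 for leukocytes, 0 of 4 for endothelium, 1 of 5 for hepatocytes (SERPINA1) and 4 of 9 for mesenchyme (VIM, CDH2, FN1 and COL1A1). The summed epithelial markers ran from 27063 to 28702 at 1000 nM and from 27505 to 32201 at 500 nM, against 22688 to 23622 in DMSO. Summed mesenchymal markers ran from 4851 to 5325 at 1000 nM and from 3957 to 4232 at 500 nM, against 4159 to 4340 in DMSO. Summed leukocyte markers, none above background, ran from 110 to 129 at 1000 nM and from 77.1 to 84.3 at 500 nM, against 76.2 to 81.1 in DMSO. The part of cell state in the results was not tested. In RNA from a whole culture, fewer cells that express a gene and less RNA per cell cannot be told apart.

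No probe set of the 10 genes was called at 0.1 to 100 nM, while 7 of 14 were called at 500 nM and 9 of 14 at 1000 nM. SULT1A1, NAT1, CYB5R3, GSTP1 and GSTM3 were higher at both top doses, and ABCC1 was lower at 1000 nM. Changes are differences of log2(intensity + 16) between group means, tested with limma over 27307 probe sets and called at a Benjamini-Hochberg adjusted p under 0.05. At 1000 nM against DMSO 7 probe sets were higher and 2 lower (64.3%), against 59.9% of all tested probe sets called in either direction, 28.9% higher and 31.0% lower. At 500 nM 7 of 14 were higher and 0 lower (50.0%; 1 lower at an unadjusted p under 0.05), against a background of 45.4%, of which 23.1% were higher and 22.3% lower. A share near the background is not a result about these genes, so only the single genes' values are read here. The median change of the 14 was 0.11 at 1000 nM and 0.14 at 500 nM, against −0.01 and 0.01 over all tested probe sets. All comparisons with DMSO share its 3 arrays. At 1000 nM all treated arrays lay above all DMSO arrays for 7 of 14 (31.8% of all tested probe sets) and below for 2 (33.3%). At 500 nM this held for 7 (22.2%) and 1 (21.4%), and at 100 nM for 4 (11.2%) and 1 (11.5%). At 0.1 to 50 nM the shares of all ran from 7.68% to 13.5% above and from 8.19% to 16.5% below. Such separation was common on these arrays and is given below as description.

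Below 500 nM the count was 0 of 14 at each of the 7 doses. The share of all tested probe sets called was 0.597% for 0.1 nM, 0.0439% for 0.5 nM, 0.78% for 1 nM and 1.11% for 5 nM. It was 0.242% for 10 nM, 0.264% for 50 nM and 2.9% for 100 nM. At an unadjusted p under 0.05, 5 of the 14 probe sets passed at 100 nM and 0 to 2 at each lower dose. The 5 at 100 nM were the leading probe sets of SULT1A1 and ABCC1, both probe sets of CYB5R3 and the third of CYB5A, with adjusted p from 0.19 to 0.29. With 5 nM replicate 3 and 500 nM replicate 3 both left out, a choice made after seeing the data, 2 of 14 were called at 100 nM, the leading sets of CYB5R3 and SULT1A1, beside 4.67% of all probe sets.

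**Figure D2:**
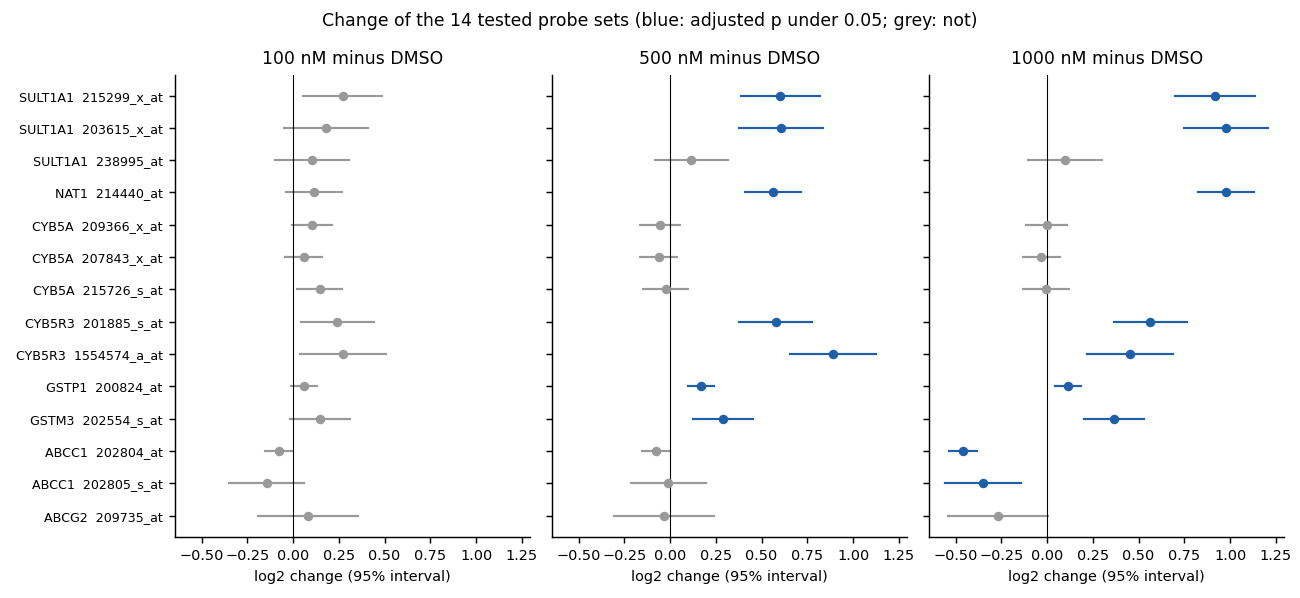
Change against DMSO of the 14 tested probe sets at 100, 500 and 1000 nM, on the scale of log2(intensity + 16); points are differences of group means and bars their 95% intervals from the limma fit. No point is called at 100 nM. At 1000 nM both ABCC1 probe sets are called below 0, and SULT1A1 (2 of 3), NAT1, CYB5R3, GSTP1 and GSTM3 are called above 0.

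SULT1A1 and NAT1, the activating transferases of the 10 genes that were above background, were higher at 500 and 1000 nM. SULT1A1 makes the sulfate ester of N-OH-PhIP. Its leading probe set, that with the highest mean over all arrays, read 1437, 1804 and 1414 at 1000 nM, against 797, 757 and 879 in DMSO. All 3 treated arrays lay above all 3 controls, and the change was 0.92 ± 0.11 on the log2 scale (SE), a 1.89-fold difference (limma adjusted p = 3.3e-08). At 500 nM the arrays read 1386, 1379 and 988, with replicate 3 the lowest but still above every DMSO array. The change there was 0.60 ± 0.11 (limma adjusted p = 3.9e-05) and 0.76 without replicate 3 (adjusted p = 2.5e-07). At 0.1 to 50 nM the group means ran from 775 to 861, beside a DMSO mean of 811 ± 62.3 (SD, n = 3). At 100 nM the mean was 984 ± 103 (SD, n = 3), with all 3 arrays above those in DMSO, and the change of 0.27 ± 0.11 did not pass (limma adjusted p = 0.19).

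The second bright probe set of SULT1A1 read 1115, 1479 and 1111 at 1000 nM, against 555, 629 and 662 in DMSO. Its changes were 0.98 ± 0.11 at 1000 nM (limma adjusted p = 3.3e-08) and 0.61 ± 0.11 at 500 nM (7.9e-05), or 0.78 without 500 nM replicate 3. The third, which stayed within the background range, averaged 67.5 ± 2.55 at 1000 nM and 62.4 ± 9.52 in DMSO (SD, n = 3 each). Its change of 0.10, with a 95% interval from −0.10 to 0.30, was not called (limma adjusted p = 0.40), so the probe sets of this gene did not all give a call. The 2 bright probe sets carry the suffix that Affymetrix gives to sets able to bind related transcripts. SULT1A1 has close relatives in SULT1A2, SULT1A3 and SULT1A4, for which the array has no probe set of a single symbol, so their share in the signal cannot be told apart.

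NAT1 makes the acetate ester and is the acetyltransferase known in most human tissues. Its only probe set read 718, 773 and 730 at 1000 nM, against 364, 394 and 346 in DMSO. The groups were far apart, at 741 ± 29.1 and 368 ± 24.0 (SD, n = 3 each), a change of 0.98 ± 0.07 (SE; 1.97-fold; limma adjusted p = 1.8e-11). At 500 nM the arrays read 528, 525 and 603, all above the controls, with a change of 0.56 ± 0.07 (limma adjusted p = 6.8e-07), or 0.50 without replicate 3. From 0.1 to 100 nM the means lay between 356 and 399. Between the top doses the difference was 0.42 ± 0.07 in favour of 1000 nM (limma adjusted p = 6.4e-05). Of the 14 probe sets, NAT1 had the smallest adjusted p in the moderated F test over the 10 groups (2.0e-11), a test that called 9 of 14 (64.3%) beside 68.3% of all probe sets. NAT2 read 7.31, 7.81 and 6.44 at 1000 nM, against 8.42, 7.30 and 6.59 in DMSO. All 3 arrays at 1, 10 and 100 nM lay below all 3 DMSO arrays, with means of 5.97, 5.94 and 6.33 against 7.44. Without the level minimum no dose was called: the changes at 1, 10 and 100 nM were −0.09, −0.09 and −0.07 (limma adjusted p = 0.20 to 0.34), and that at 1000 nM was −0.02 ± 0.03 (0.75).

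**Figure D3:**
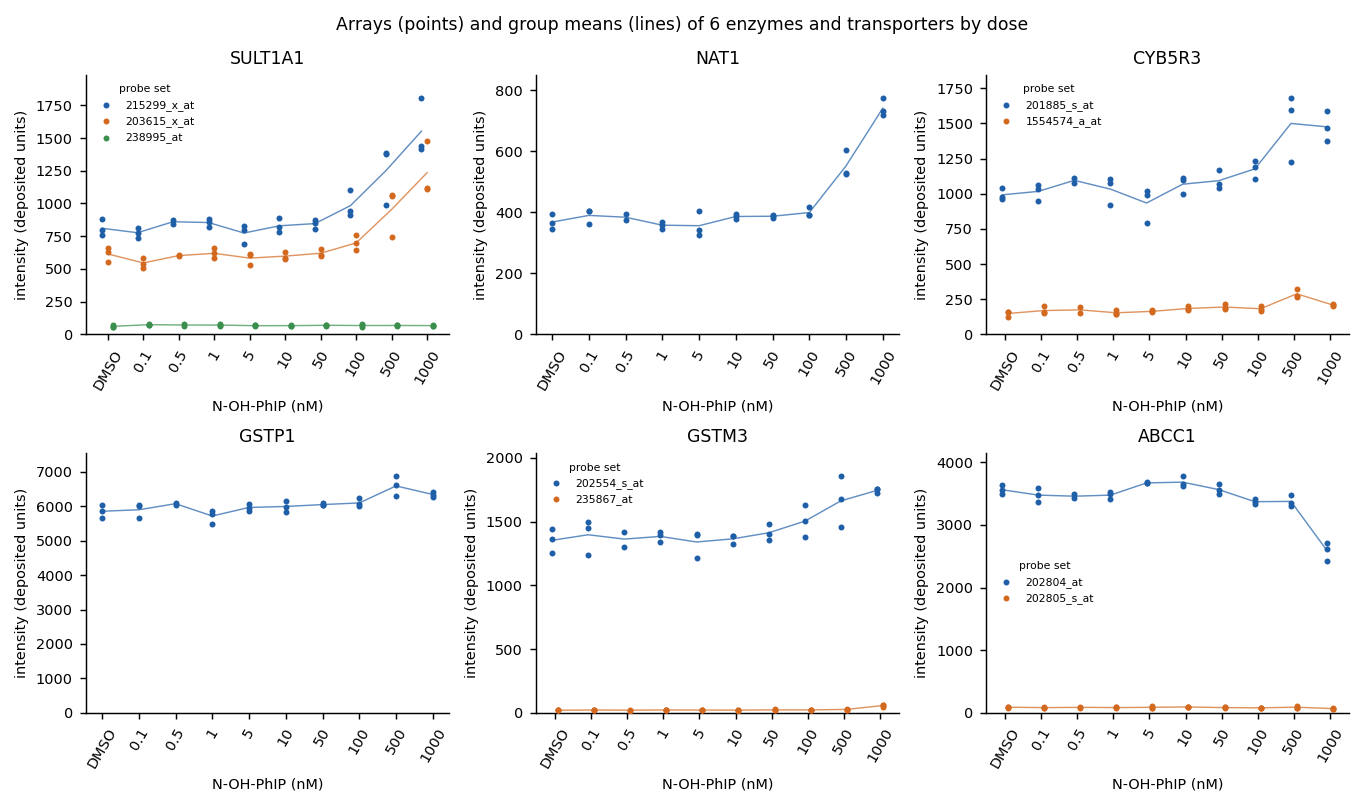
Intensity (deposited units, linear axes from 0) of the probe sets of 6 genes against N-OH-PhIP dose; points are arrays (3 per group, 2 at 0.5 nM) and lines join group means. NAT1 and the bright SULT1A1 probe sets rise above the DMSO arrays at 500 and 1000 nM, the dimmer CYB5R3 probe set is highest at 500 nM, and ABCC1 is lower at 1000 nM.

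In the reduction step the reductase CYB5R3 was higher at both top doses, and its partner CYB5A was not called against DMSO at any dose. CYB5R3, which passes electrons from NADH to cytochrome b5, read 1375, 1586 and 1466 at 1000 nM with its leading probe set, against 977, 962 and 1038 in DMSO. The groups did not overlap and the change was 0.56 ± 0.10 (SE; limma adjusted p = 1.7e-05). At 500 nM the arrays read 1594, 1680 and 1227, a change of 0.58 ± 0.10 (2.4e-05), or 0.71 without replicate 3. The change between 1000 and 500 nM was −0.01 ± 0.10, with a 95% interval from −0.21 to 0.19. At 0.1 to 100 nM the group means ran from 935 to 1177, beside 992 ± 40.4 in DMSO (SD, n = 3). All arrays at 0.5, 50 and 100 nM lay above the controls, but these doses were not called (limma adjusted p = 0.70, 0.72 and 0.21).

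The other CYB5R3 probe set had another course. It read 200, 218 and 210 at 1000 nM, against 128, 160 and 160 in DMSO, and 266, 325 and 277 at 500 nM. All 500 nM arrays were above all 1000 nM arrays, which were in turn above the controls. The changes against DMSO were 0.45 ± 0.11 at 1000 nM (limma adjusted p = 0.0013) and 0.89 ± 0.11 at 500 nM (4.9e-07), or 0.92 without 500 nM replicate 3. The difference of 1000 nM from 500 nM was −0.43 ± 0.11 (limma adjusted p = 0.0032). At 10, 50 and 100 nM its means were 185, 195 and 183, against 149 ± 18.6 in DMSO (SD, n = 3), with all arrays above the controls. The changes of 0.29, 0.36 and 0.27 at these doses were not called (limma adjusted p = 0.27, 0.29 and 0.24). Whether the probe sets see different transcripts of CYB5R3 was not tested.

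CYB5A, cytochrome b5 itself, gave no called change from DMSO at any dose on any of its 3 bright probe sets. The leading and the second of these carry the same suffix as the bright SULT1A1 sets, and the part of related transcripts was not tested. The leading probe set read 1342, 1330 and 1367 at 1000 nM, against 1280, 1380 and 1386 in DMSO, with full overlap. Its change was 0.00 ± 0.05, with a 95% interval from −0.11 to 0.11. With the 3′ to 5′ signal ratio of actin and GAPDH, a measure of RNA quality, as a covariate it was −0.15 ± 0.10 (limma adjusted p = 0.26). For the second and the third the changes at 1000 nM were −0.03 and −0.01. The second was called by the moderated F test over the 10 groups (limma adjusted p = 0.039): its group means ran from 1184 at 0.5 nM to 1377 at 100 nM, with 1294 at 1000 nM and 1323 in DMSO. The dim probe set of CYB5A had 67.1 on DMSO replicate 1, beside 14.1 and 16.4 on the other 2 DMSO arrays, so its DMSO mean rests on a single array. Without the level minimum its changes of −0.63 ± 0.24 at 500 nM and −0.58 ± 0.24 at 1000 nM were not called (limma adjusted p = 0.056 and 0.063). The slope of its log2 values on log10 dose, which leaves out DMSO, was called (limma adjusted p = 4.4e-04). Its group means were 35.4 ± 15.9 at 0.1 nM and 13.0 ± 1.82 at 1000 nM (SD, n = 3 each), within the background range.

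Glucuronidation could not be read for UGT1A6 alone. Its single-gene probe set read 7.59, 8.02 and 7.77 at 1000 nM, against 7.23, 8.48 and 9.63 in DMSO, and 9.16, 8.39 and 9.68 at 500 nM, and over all arrays it stood at the 9.58th percentile of the array. A further 5 probe sets, outside the rule, carry the symbols of UGT1A6 and of other UGT1A genes, which share their 3′ exons, and they cannot say which of these genes gave the signal. All 5 were higher at 500 nM, by 0.80 to 1.09 on the log2 scale, beside 23.1% of all tested probe sets called higher. Their log2 values ran together over the 29 arrays (Pearson r = 0.87 to 0.96), so they are not 5 separate measurements. The set with the largest change, for example, read 134, 133 and 118 at 500 nM, against 42.4, 52.8 and 61.5 in DMSO (change 1.09 ± 0.13, limma adjusted p = 1.9e-07). At 1000 nM the same probe set read 42.8, 32.4 and 58.4, which overlaps the controls.

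Of the 9 doses, 500 nM was the only one at which any of the 5 was called higher than DMSO. The difference of 1000 nM from 500 nM was called for all 5 probe sets, at −0.95 to −1.33, with limma adjusted p from 4.3e-09 to 3.1e-08. Of all tested probe sets, 25.6% were called lower in that comparison. Against DMSO, 1 of the 5 was lower at 1000 nM (change −0.45 ± 0.12, limma adjusted p = 0.0018), beside 31.0% of all, and the other 4 were not called. Only at 500 nM did group means exceed the background level of 89.9, for 4 of the 5.

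**Figure D4:**
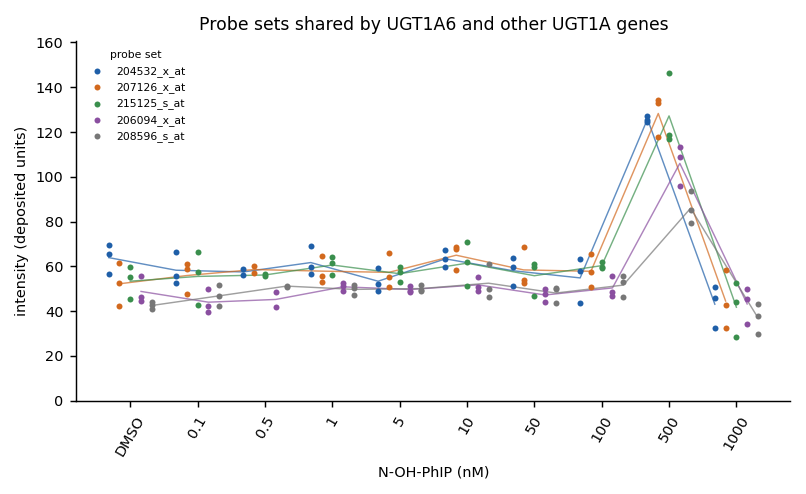
Intensity (deposited units, linear axis from 0) of the 5 probe sets shared by UGT1A6 and other UGT1A genes against N-OH-PhIP dose; points are arrays, lines join group means, and probe sets are set side by side within a dose. At 500 nM all points lie between 79.3 and 146, above every array of the other groups.

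Both glutathione transferases among the 10 genes rose, by modest amounts. GSTM3, a mu-class enzyme, had with its leading probe set 1757, 1756 and 1721 at 1000 nM, against 1254, 1441 and 1364 in DMSO. Its change was 0.37 ± 0.08 (SE; limma adjusted p = 3.0e-04). At 500 nM the arrays read 1681, 1854 and 1454, with replicate 3 only just above the highest DMSO array, and the change was 0.29 ± 0.08 (0.0042; 0.063 with only this dose and DMSO in the fit), or 0.38 without replicate 3. Mu-class genes are similar in sequence, and the part of related transcripts was not tested. The dim probe set of GSTM3 read 45.1, 61.9 and 63.6 at 1000 nM, against 18.4, 20.9 and 20.2 in DMSO. It did not reach the level minimum and was not among the 14; without that minimum its change was 1.01 ± 0.11 (limma adjusted p = 2.3e-08).

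GSTP1, a pi-class enzyme with a single probe set, read 6266, 6428 and 6345 at 1000 nM, against 5668, 5866 and 6041 in DMSO. The groups did not overlap, but the change was small, 0.12 ± 0.03 (SE; 1.08-fold; limma adjusted p = 0.0047). It was no longer called with quantile normalization (adjusted p = 0.078). At 500 nM it read 6620, 6870 and 6295, a change of 0.17 ± 0.03 (limma adjusted p = 1.9e-04), or 0.20 without replicate 3. The antioxidant core in its window, shown above, is a description of the sequence and draws no link to these values.

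Of the exporters, ABCC1 fell at 1000 nM. ABCC1, also known as MRP1, carries glutathione and glucuronide conjugates out of cells. Its leading probe set read 2431, 2616 and 2717 at 1000 nM, against 3556, 3498 and 3629 in DMSO. All 3 treated arrays lay below all 3 controls, and the change was −0.46 ± 0.04 (SE; limma adjusted p = 4.1e-11). At 500 nM it read 3471, 3299 and 3356, all just below the lowest control, and the change of −0.08 ± 0.04 did not pass (limma adjusted p = 0.085), though it did with quantile normalization (0.026). The difference of 1000 nM from 500 nM was −0.38 ± 0.04 (limma adjusted p = 8.1e-09). From 0.1 to 100 nM its group means lay between 3371 and 3683. All 3 arrays at 100 nM also lay below the controls, with a change of −0.08 ± 0.04 that was not called (limma adjusted p = 0.29). At 5 nM all 3 lay above them (change 0.04 ± 0.04, limma adjusted p = 0.62).

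The second ABCC1 probe set read 60.6, 68.0 and 70.8 at 1000 nM, against 81.5, 92.0 and 93.7 in DMSO. Its change of −0.35 ± 0.10 was called (limma adjusted p = 0.0039), though its levels lay close to background. With the 3′ to 5′ ratio as a covariate the change was −0.74 ± 0.18 (0.0019). ABCG2 read 35.7, 32.2 and 46.3 at 1000 nM, against 40.3, 44.1 and 64.0 in DMSO. The arrays overlapped, and the change of −0.27 ± 0.13, with a 95% interval from −0.54 to 0.01, was not called (limma adjusted p = 0.087). It was called without DMSO replicate 1 (change −0.37, adjusted p = 0.032) or without 1000 nM replicate 3 (change −0.37, adjusted p = 0.030).

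The comparison of 1000 nM with 500 nM shares no array with DMSO. It called 6 of 14 probe sets (42.9%), beside 43.3% of all. Higher at 1000 nM were NAT1 and both bright SULT1A1 probe sets, with SULT1A1 differing by 0.32 ± 0.11 and 0.37 ± 0.11. Lower were both ABCC1 probe sets and the dimmer set of CYB5R3. GSTP1, GSTM3, CYB5A and ABCG2 were not called.

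The slope against log10 of the dose, fitted to the 26 arrays with N-OH-PhIP, called 8 of 14 (57.1%), beside 59.5% of all tested probe sets. The slopes per 10-fold dose were 0.20 and 0.23 for the bright SULT1A1 probe sets, 0.18 for NAT1, 0.14 for both CYB5R3 probe sets, 0.08 for GSTM3, 0.04 for GSTP1 and −0.06 for the leading set of ABCC1. The courses were not straight on that scale: at 100 nM the changes of NAT1 and ABCC1 were 0.11 and −0.08, against 0.98 and −0.46 at 1000 nM. The mean log2 ratio of 3′ to 5′ signal of actin and GAPDH, a measure of RNA and amplification quality, moved with dose as well. It was 0.84 ± 0.02 at 1000 nM and 1.18 ± 0.04 in DMSO (SD, n = 3 each), and 0.93 ± 0.08 at 500 nM. Only the actin ratio was lower there, at 1.52 ± 0.04 at 1000 nM and 1.67 ± 0.20 at 500 nM, against 2.21 ± 0.07 in DMSO. The GAPDH ratio was 0.17 ± 0.01, 0.20 ± 0.04 and 0.14 ± 0.01 in these groups. The mean thus follows mainly actin, and whether it reads RNA quality here was not tested. With this mean ratio as a covariate the trend called 0 of 14, beside 0.439% of all probe sets. In the fit by dose with the covariate, 7 of 14 were called at 1000 nM and 7 at 500 nM. The probe sets lost at 1000 nM were those of GSTP1 (adjusted p = 0.16) and the dimmer set of CYB5R3 (0.18). For NAT1 and the leading set of SULT1A1 the changes at 1000 nM were then 0.82 and 1.13, for the leading set of ABCC1 −0.50, for the leading set of CYB5R3 0.78 and for GSTM3 0.53. For the shared UGT1A probe set that was lower at 1000 nM the change was then −0.76.

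The rest of the pathway moved in both directions. Of 72 further genes listed by step, 57 had a probe set of their own and 44 were tested. At 1000 nM 15 were higher and 12 lower; at 500 nM 15 were higher and 11 lower; at 100 nM 0 were called. In either direction that was 61.4% at 1000 nM, beside 59.9% of all tested probe sets, and 59.1% at 500 nM, beside 45.4%. The higher share was 34.1% at both doses, beside 28.9% of all at 1000 nM and 23.1% at 500 nM. Each gene stands here by the tested probe set with its highest mean, so these shares are a description and nothing is called particular to the pathway from them.

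Among phase I enzymes, the cytochrome P450 genes that make N-OH-PhIP from PhIP were dim or lower. CYP1A1 averaged 12.4 ± 1.64 at 1000 nM and 28.0 ± 6.68 in DMSO, and CYP1A2 25.9 ± 1.41 and 32.5 ± 21.4 (SD, n = 3 each), both under the minimum and untested. CYP1B1 averaged 132 ± 13.5 at 1000 nM and 168 ± 26.6 in DMSO (change −0.30 ± 0.11, limma adjusted p = 0.025). PTGS2, the inducible cyclooxygenase, rose by 1.13 ± 0.20 at 1000 nM (limma adjusted p = 2.5e-05), and POR, the reductase that serves P450 enzymes, by 0.84 ± 0.15 (2.2e-05). AHR, the receptor that drives CYP1 genes, averaged 1117 ± 22.2 at 1000 nM and 923 ± 39.2 in DMSO (change 0.27 ± 0.09, limma adjusted p = 0.014).

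In the sulfation step, 2 of 5 tested genes were lower (40%, beside 31.0% of all probe sets) and 0 higher at 1000 nM. SLC35B3, which carries the sulfate donor into the Golgi, fell by 0.50 on the log2 scale (SE 0.06; limma adjusted p = 6.9e-08). SULT1E1, an estrogen sulfotransferase named here after its values were seen, averaged 171 ± 53.7 at 1000 nM, 115 ± 53.8 at 500 nM and 182 ± 12.9 in DMSO (SD, n = 3 each). It was called lower at 500 nM (change −0.67 ± 0.23, limma adjusted p = 0.019) and not at 1000 nM (−0.13 ± 0.23, 0.66). In the glutathione step, 4 of 17 were higher and 5 lower at 1000 nM (52.9% called, beside 59.9% of all), and 7 were higher and 5 lower at 500 nM (70.6%, beside 45.4%). GSTT2 rose by 0.98 ± 0.11 (limma adjusted p = 4.2e-08). GSTZ1, which also breaks down tyrosine products, and GSTM4 were lower, with changes of −0.85 ± 0.07 (3.1e-10) and −0.69 ± 0.13 (4.9e-05). GSTT2 has a near-identical copy, GSTT2B, from which its signal cannot be told apart.

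Of the reductases, 2 of 7 were higher and 1 lower at 1000 nM (42.9% called, beside 59.9% of all). Below 500 nM a single gene of the 44 was called, NQO1, which is named here after its values were seen. NQO1, a quinone reductase, was lower at 1 nM (change −0.20, limma adjusted p = 0.031) and 5 nM (−0.18, 0.036), but higher at 500 nM (0.39) and 1000 nM (0.32). Of the 4 other exporters tested, 2 were higher and 1 lower at 1000 nM (75% called, beside 59.9% of all). At 500 nM 2 were higher and 2 lower (100%, beside 45.4%). ABCC4, a relative of ABCC1, averaged 141 ± 27.9 at 1000 nM and 331 ± 22.6 in DMSO (SD, n = 3 each), a change of −1.16 ± 0.14 (limma adjusted p = 6.3e-08). At 500 nM its change was −1.43 ± 0.14. ABCC5 and ABCC10, named here after their values were seen, rose at 1000 nM. Their changes were 0.55 ± 0.09 (limma adjusted p = 9.4e-06) and 0.26 ± 0.10 (0.024). Of the 4 tested regulators, 2 were higher (AHR and KEAP1) and 2 lower at 1000 nM (100% called, beside 59.9% of all). KEAP1, the repressor of the antioxidant factor NRF2, rose by 0.79 ± 0.12 at 1000 nM (limma adjusted p = 2.2e-06) and by 1.02 ± 0.12 at 500 nM (9.0e-08). ARNT and NFE2L2, named here after their values were seen, were lower at 1000 nM. Their changes were −0.48 ± 0.10 (limma adjusted p = 3.0e-04) and −0.32 ± 0.07 (3.2e-04).

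**Figure D5:**
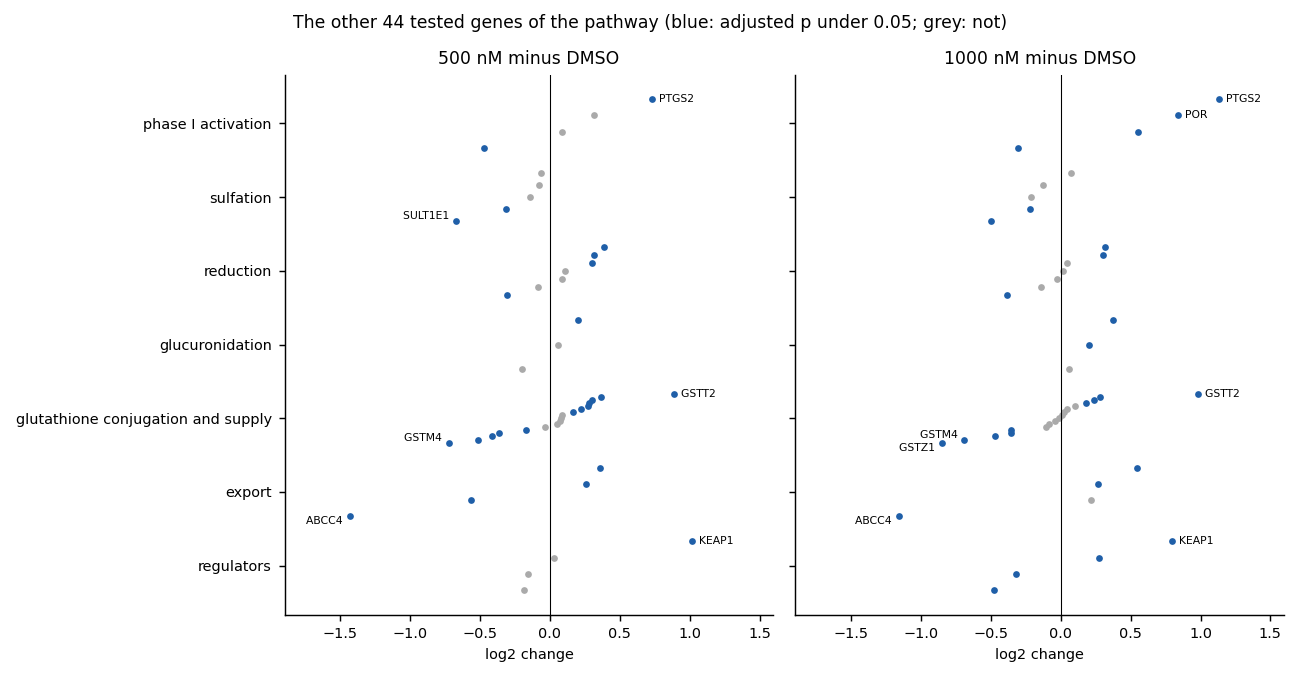
Change against DMSO at 500 and 1000 nM, on the scale of log2(intensity + 16), of the 44 other tested genes of the pathway, each by its brightest probe set, in rows by step; blue points are called and grey points are not. Genes with a change beyond 0.6 in either direction are named, among them ABCC4 at −1.43 and −1.16 and GSTT2 at 0.89 and 0.98; within a step the height carries no value.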

How the data were processed

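The authors deposited 1 linear intensity per probe set and array, already normalized; which normalization was used is not stated in the sources used here, and the submitters' processing notes name GCOS without a version. Per the labels, amplified cDNA was hybridised to Affymetrix 3′ arrays. Trimmed means ran from 299 to 309 over the 29 arrays, so nothing further was normalized; the number of arrays limits the precision. The lowest dose, 0.1 nM, was taken from the sample titles, while the labels' protocol text begins higher. All analysis was of log2(intensity + 16); the offset compresses changes of dim probe sets. Of 54613 non-control probe sets, 27307 reached the median log2 level of 5.74 and were tested. A single limma fit held a mean for each of the 10 groups, moderated with a mean-variance trend on 19 residual degrees of freedom, with two-sided tests adjusted by Benjamini-Hochberg over all tested probe sets. P-values measure the spread between the cultures of a group. Named were all 10 genes with all their probe sets, the 4 higher and 4 lower called pathway genes of largest change at 1000 nM, and CYP1A1, CYP1A2, CYP1B1 and AHR. The genes and lists were chosen with earlier results of these data known. The code was tested on simulated data. R 4.3.3, limma 3.58.1 and matplotlib 3.10.9 were used. Alternatives were another offset, normalization or level filter, no variance trend, a replicate block, a 3′ to 5′ covariate, fewer groups in the fit, other trend scales and leaving out each array.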

Additional observations from a re-analysis of the deposited data

How the results depend on the processing

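The count of called probe sets of the 14 was 9 at 1000 nM and ran from 7 to 10 over 39 alternatives; at 500 nM it was 7 and ran from 6 to 8. At 0.1 to 50 nM it was 0 under all 39. At 100 nM it was 0 under all but 1, chosen after seeing the data: with 5 nM replicate 3 and 500 nM replicate 3 both left out it was 2, namely the leading sets of CYB5R3 (change 0.24, adjusted p = 0.037) and SULT1A1 (0.27, 0.046), beside 4.67% of all probe sets; the cause was not tested. The trend count was 8, ran from 7 to 10 under the other alternatives, and was 0 with the 3′ to 5′ covariate. Leaving out single arrays gave 9 to 10 at 1000 nM, 7 at 500 nM and 8 to 9 for the trend. Signs turned only where no change was called: CYB5A at 1000 nM was 0.016 with quantile normalization and −0.038 to 0.019 when single arrays were left out, and ABCG2 at 500 nM was 0.0070 with the covariate and −0.14 to 0.12 when single arrays were left out. ABCC1 at 500 nM was called with quantile normalization (adjusted p = 0.026), and GSTM3 at 500 nM was not called when only that dose and DMSO entered the fit (0.063). The shared UGT1A count at 1000 nM, 1 lower, was 2 without DMSO replicate 1 and 3 without 1000 nM replicate 3. With a replicate block the counts were 9 at 1000 nM, 7 at 500 nM, 0 at 100 nM and 8 for the trend, and the block changed no other call. Deviations of same-numbered arrays in different groups correlated at a median of 0.014 over 126 pairs (−0.52 to 0.75, with 37 above 0.1). For differently numbered arrays the median was −0.020 over 252 pairs (−0.62 to 0.50, with 57 above 0.1). The main fit therefore used no pairing, though so few arrays per group cannot exclude it. Dim probe sets limit what can be read: NAT2, UGT1A6 and ABCG2 were not shown above background.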

Other observations

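Over all 29 arrays, which share doses and a line, the genes whose log2 values ran most like those of NAT1 were SHISA2 (Pearson r = 0.976) and ID2, a negative regulator of helix-loop-helix proteins (r = 0.975), out of 12166 genes. The change of SHISA2 was 3.31 at 1000 nM and 1.66 at 500 nM, and that of ID2 was 3.89 and 2.00. For ABCC1 the nearest were KIAA1671 (r = 0.960) and GRHL2, an epithelial transcription factor (r = 0.957), with changes of −0.83 and −0.92 at 1000 nM and of −0.12 and −0.18 at 500 nM. For SULT1A1 they were CKB, the brain-type creatine kinase (r = 0.950), and S100A13, a calcium-binding protein (r = 0.947), with changes of 1.61 and 0.80 at 1000 nM. These are descriptions with no test.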
